A study of Homo sapiens with 6 samples.

Results

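The genes described here are APAF1, the caspases CASP2, CASP8 and CASP9, the caspase inhibitors XIAP and CFLAR, and 2 proteins released from mitochondria, CYCS and DIABLO. They were chosen by symbol, 8 of the 23686 genes in the deposited tables, and all 8 had enough reads to test. RNA sequencing covered 6 libraries of 2 human non-small cell lung carcinoma lines, HCC15 and A427, both labelled wild type. Each line was transfected with LGR6 siRNA 4, with LGR6 siRNA 2 or with Tax siRNA, the control, in medium with 5% serum, and was collected at 48 h. LGR6 encodes a cell surface receptor that binds R-spondins, enhancers of Wnt signalling. Only 1 library was made per line and siRNA, and the labels do not say how the cultures were set up, so no p-value below measures a spread between repeated cultures.

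Apoptosis is carried out by caspases, proteases made as inactive precursors. On the intrinsic route, cytochrome c (CYCS) leaves the mitochondria and binds APAF1, which assembles into the apoptosome and activates caspase 9, which in turn cleaves other caspases further down the route. On the extrinsic route, death receptors recruit FADD and caspase 8, and CFLAR (c-FLIP), a caspase 8 relative without protease activity, can hold that step back. XIAP binds and inhibits caspases, caspase 9 among them, and DIABLO (Smac) relieves that inhibition once released. Caspase 2 is activated on a separate platform with PIDD1 and CRADD. All of this control acts on proteins, which were not measured here.

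Total reads per library ranged from 25546419 to 28987901. The targeted gene, LGR6, had 77 reads with siRNA 4, 39 with siRNA 2 and 257 with control siRNA in HCC15, and 0, 0 and 5 reads in A427. In HCC15 its level was 30.7% of control with siRNA 4 and 14.0% with siRNA 2, with 95% counting intervals of 23.5 to 39.8% and 9.72 to 19.7%. In A427, where 0 reads allow up to 3, the gene was near the limit of detection in every library, so the label could not be checked there. Of the epithelial markers examined, KRT8 and KRT18 were between 276 and 4072 TPM in all libraries. EPCAM was at 27.6 to 53.9 TPM in HCC15 and 403 to 457 TPM in A427, and CDH1 at 5.64 to 46.0 TPM and 3.11 to 3.52 TPM. The lung adenocarcinoma markers NKX2-1 and SFTPB and the squamous markers TP63 and KRT5 reached at most 0.11 TPM. The adenocarcinoma marker NAPSA reached 0.310 TPM in HCC15 and 1.36 TPM in A427, and the squamous marker SOX2 0.0600 TPM and 2.93 TPM.

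The APAF1 and CASP2 genes lie on chromosomes 12 and 7. The 250 bases before their annotated starts are shown because the reads of these genes differed in opposite directions between the siRNAs. Both are on the plus strand of GRCh38.p14, in the RefSeq promoter table, which holds all 8 genes. Capitals mark the GC box GGGCGG and the CCAAT box, read on either strand.
APAF1, chr12:98645040-98645289: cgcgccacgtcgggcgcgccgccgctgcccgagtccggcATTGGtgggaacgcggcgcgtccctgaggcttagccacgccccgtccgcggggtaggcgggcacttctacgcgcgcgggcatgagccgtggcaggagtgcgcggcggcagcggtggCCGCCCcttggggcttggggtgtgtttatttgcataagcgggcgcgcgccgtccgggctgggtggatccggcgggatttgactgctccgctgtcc
CASP2, chr7:143288101-143288350: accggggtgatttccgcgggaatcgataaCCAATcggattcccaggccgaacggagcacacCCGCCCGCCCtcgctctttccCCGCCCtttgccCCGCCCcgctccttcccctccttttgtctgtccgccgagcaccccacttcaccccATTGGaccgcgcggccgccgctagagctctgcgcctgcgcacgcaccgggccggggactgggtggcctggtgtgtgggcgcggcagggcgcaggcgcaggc
The APAF1 window held 1 GC box and 1 CCAAT box and was 73.6% G and C, and the CASP2 window held 4 GC boxes, of which 2 overlap, and 2 CCAAT boxes and was 71.2% G and C. Over all 35116 windows of that length, 42.6% held a GC box and 32% a CCAAT box. The median window was 58% G and C. The E2F words TTTGGCGC, TTTCCCGC, TTTGCCGC and TTTCGCGC were found in none of the 20 windows of the 8 genes, against 2.79% of all windows. CASP2 has 2 windows in the table, and the first is shown.

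APAF1, the scaffold of the apoptosome, was lower in all 4 LGR6 siRNA libraries than in either control library. It had 678 reads with siRNA 4, 1417 with siRNA 2 and 2191 with control siRNA in HCC15. In A427 it had 715, 982 and 2004 reads with siRNA 4, siRNA 2 and control siRNA. Scaled to library size, that was 26.4, 49.7 and 83.3 CPM (reads scaled to a common library total with TMM factors) in HCC15 and 25.9, 37.4 and 68.6 CPM in A427. The siRNA 4 libraries were lowest in both lines and the siRNA 2 libraries stood between them and the controls, with no overlap between the 3 siRNAs. The share of all genes that separate in this way was not determined. With siRNA 4 the level was 31.7% of its own control in HCC15 and 37.8% in A427, with counting intervals of 29.1 to 34.6% and 34.6 to 41.2%. With siRNA 2 it was 59.6% in HCC15 and 54.6% in A427, with intervals of 55.7 to 63.8% and 50.5 to 58.9%. These intervals cover counting error only. The libraries are of whole cultures, so less APAF1 RNA per cell and fewer cells that express it cannot be told apart.

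**Figure D1:**
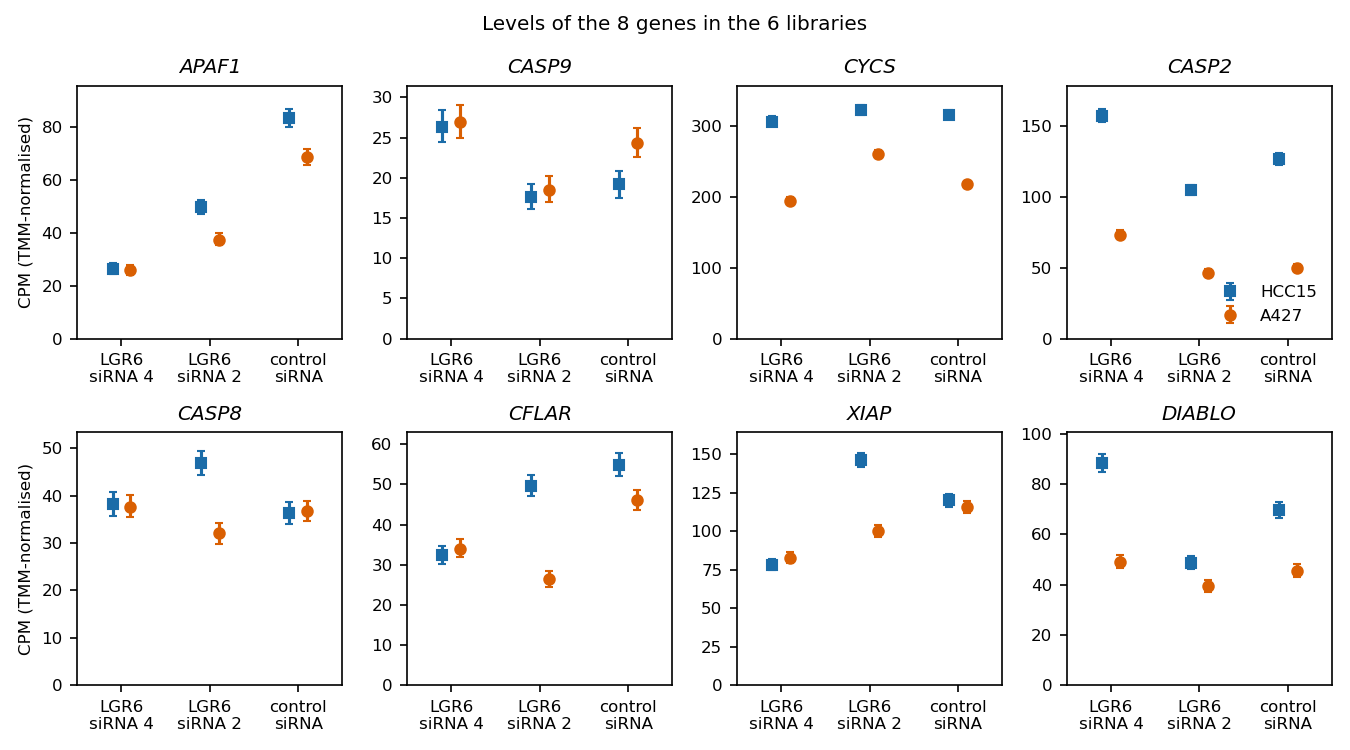
CPM on the TMM scale of each gene in the HCC15 (squares) and A427 (circles) libraries, by siRNA, with bars for the exact 95% counting interval. APAF1 is at 26.4 and 25.9 CPM with siRNA 4 and at 49.7 and 37.4 CPM with siRNA 2 in HCC15 and A427. With control siRNA it is at 83.3 and 68.6 CPM. CASP9, at 17.6 to 26.9 CPM, is highest with siRNA 4 in both lines.

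The effect of each siRNA was fitted as common to both lines. Its error came from how far the lines differed, with edgeR drawing on all tested genes to steady the estimate. APAF1 fell by 1.53 ± 0.14 on the log2 scale (SE) with siRNA 4 against control siRNA, with an adjusted p of 0.00134 by edgeR's quasi-likelihood test with Benjamini-Hochberg adjustment over 14481 genes. It was the only 1 of the 8 genes to pass an adjusted p of 0.05 in that comparison, in which 12.5% of all tested genes passed, 4.58% as higher and 7.95% as lower. With siRNA 2 against control siRNA it fell by 0.81 ± 0.14 (adjusted p = 0.0141), again the only 1 of the 8, where 7.62% of all genes passed, 2.96% as higher and 4.66% as lower. A share of 1 in 8 is near both backgrounds. Both comparisons use the same 2 control libraries, and without the HCC15 control library 97 genes in all were called with siRNA 4 and 4 with siRNA 2. The medians over the 8 genes were -0.02 with siRNA 4 and -0.23 with siRNA 2, against -0.01 over all genes in each. Between the siRNAs, APAF1 was lower with siRNA 4 than with siRNA 2, with a log2 fold change of -0.72 ± 0.14 (adjusted p = 0.0130).

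The siRNA 4 call held without each of the 6 libraries in turn, with log2 fold changes of -1.69 to -1.36, and was lost with limma on log2(TPM + 1) without a filter (adjusted p = 0.0600, at -1.42). The siRNA 2 call was lost without the A427 control (adjusted p = 0.157), the A427 siRNA 2 (0.0698), the HCC15 control (0.254) or the HCC15 siRNA 2 library (0.0549), and with limma on log2(TPM + 1) (0.0560), at log2 fold changes of -0.93 to -0.69 in the edgeR fits. The difference between the siRNAs was not called without the HCC15 siRNA 2 library (0.0994) or the HCC15 siRNA 4 library (0.132).

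With both siRNAs pooled as 1 silenced arm, APAF1 had a log2 fold change of -1.12 ± 0.27 across the lines, which did not pass (adjusted p = 0.267 by edgeR). In this fit the spread includes the difference between the siRNAs, and it called 0 of the 8 genes and 0% of all genes. There were 1512 genes at an unadjusted p under 0.05, and DESeq2 called 387. With the siRNA number as a block, the value was -1.17 ± 0.12 (adjusted p = 0.00362), and APAF1 was the only 1 of the 8 among the 8.96% of genes called, 3.31% as higher and 5.65% as lower. Within HCC15 the log2 fold change was -1.13 ± 0.44 and within A427 -1.11 ± 0.44, each with an adjusted p of 1. The targeted gene, LGR6, was not called within HCC15 by the same fit either, at -2.17 ± 0.56. With the block, which leaves 1 residual degree of freedom, the APAF1 values were -1.20 (adjusted p = 0.0493) in HCC15 and -1.14 (adjusted p = 0.152) in A427. In HCC15 the block called 0.787% of all genes, 0.186% as higher and 0.601% as lower, and called none in A427. The response in HCC15 minus that in A427 was -0.02 ± 0.64 and, with the block, -0.06 ± 0.29.

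**Figure D2:**
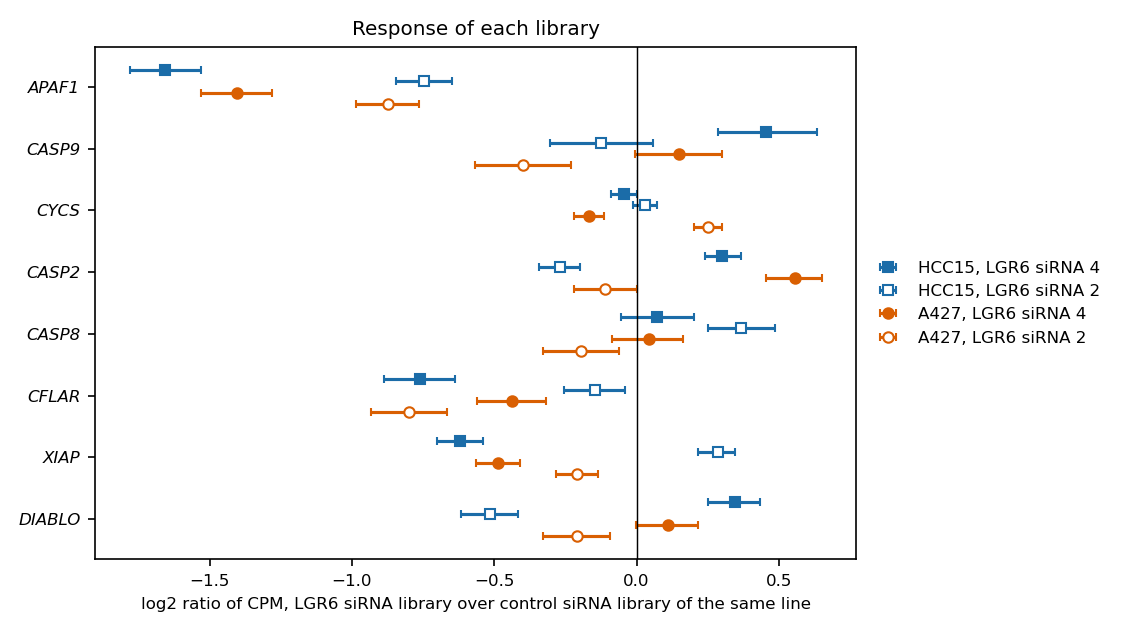
Log2 ratio of CPM in each LGR6 siRNA library over the control library of the same line (horizontal axis), for HCC15 (squares) and A427 (circles), siRNA 4 filled and siRNA 2 open, with 95% counting intervals. APAF1 lies between -1.66 and -0.75 in all 4 libraries, and CFLAR is the only other gene below 0 in all 4.

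ANKS1B, a neighbour whose RefSeq locus overlaps that of APAF1, had 379, 310 and 447 reads with siRNA 4, siRNA 2 and control siRNA in A427, and 1, 0 and 0 in HCC15. Whether counting used the strand is not stated in the sources. At its highest, in A427, the neighbour had 53.0% as many reads as APAF1 in the same library. In HCC15, where the neighbour was at or near 0, the ratios of APAF1 to control were 31.7% and 59.6%, as given above. Whether reads of the neighbour entered the APAF1 counts was not tested.

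Caspase 9, which APAF1 activates, did not follow the level of APAF1. CASP9 had 26.3, 17.6 and 19.2 CPM with siRNA 4, siRNA 2 and control siRNA in HCC15, and 26.9, 18.5 and 24.3 CPM in A427. In both lines the siRNA 4 library was highest and the siRNA 2 library lowest. In CPM the 3 siRNAs did not overlap, and the share of all genes without overlap was not determined. In TPM the siRNAs overlapped. CASP9 had 25.9, 19.5 and 19.7 TPM with siRNA 4, siRNA 2 and control siRNA in HCC15. The A427 values were 29.5, 20.4 and 26.2 TPM. Neither siRNA passed against control, with log2 fold changes of 0.30 (adjusted p = 0.238) for siRNA 4 and -0.26 (adjusted p = 0.338) for siRNA 2. CASP9 was higher with siRNA 4 than with siRNA 2 by 0.56 ± 0.15 (adjusted p = 0.0417). That call was lost without any 1 of the 6 libraries (adjusted p = 0.0640 to 0.280).

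Per unit of length, APAF1 transcripts stood at 0.282, 0.772 and 1.18 times the TPM of CASP9 with siRNA 4, siRNA 2 and control siRNA in HCC15. In A427 these ratios of TPM were 0.267, 0.557 and 0.786. The siRNA 4 libraries of the 2 lines were close to each other and below all the others.

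CYCS, which encodes cytochrome c, was the most abundant of the 8 genes in every library, at 75.2 to 125 TPM. It had 306, 323 and 316 CPM with siRNA 4, siRNA 2 and control siRNA in HCC15, and 194, 260 and 218 CPM in A427. The HCC15 libraries differed little among themselves, and in A427 the siRNA 2 library was highest. No comparison between siRNAs passed, with log2 fold changes of -0.10 (adjusted p = 0.623) for siRNA 4 and 0.15 (adjusted p = 0.513) for siRNA 2 against control, and -0.25 (adjusted p = 0.204) for siRNA 4 against siRNA 2. RefSeq lists 45 pseudogenes named after CYCS, so how the authors' counting shared reads among the copies is uncertain.

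CASP2, the initiator caspase of the PIDD1 platform, had its highest level with siRNA 4 in each line. It had 157, 105 and 127 CPM with siRNA 4, siRNA 2 and control siRNA in HCC15, and 73.2, 46.3 and 49.9 CPM in A427. Relative to its own control, the siRNA 4 level was 123% in HCC15 and 147% in A427, with counting intervals of 118 to 129% and 137 to 157%. The siRNA 2 level was 82.9% and 92.7%. Against control the log2 fold change was 0.43 ± 0.12 with siRNA 4 (adjusted p = 0.0567) and -0.19 with siRNA 2 (adjusted p = 0.374). DESeq2 called the siRNA 4 value, at 0.44 (adjusted p = 0.0211).

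Between the siRNAs, 5 of the 8 genes passed, where 16.5% of all genes did, 7.70% as higher and 8.84% as lower with siRNA 4. CASP2, CASP9 and DIABLO were higher with siRNA 4, and APAF1 and XIAP were lower. The median over the 8 genes was -0.09, against 0.00 over all genes. CASP2 had a log2 fold change of 0.62 ± 0.12 for siRNA 4 over siRNA 2 (adjusted p = 0.0131). That call was lost without the A427 siRNA 4 (0.0540), the HCC15 siRNA 2 (0.0833) or the HCC15 siRNA 4 library (0.0754).

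CASP8, the initiator caspase of the death receptor route, had 38.2, 46.8 and 36.3 CPM with siRNA 4, siRNA 2 and control siRNA in HCC15. In A427 it had 37.7, 32.0 and 36.7 CPM. The siRNA 2 library was the highest of the 3 in HCC15 and the lowest in A427. No comparison between siRNAs passed, with log2 fold changes of 0.06 (adjusted p = 0.859) for siRNA 4 and 0.10 (adjusted p = 0.778) for siRNA 2 against control, and -0.04 (adjusted p = 0.894) for siRNA 4 against siRNA 2. The sign of each changed when 1 library was left out.

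CFLAR, which restrains caspase 8, had fewer reads in all 4 LGR6 siRNA libraries than in the control of its line. It had 32.4, 49.6 and 54.9 CPM with siRNA 4, siRNA 2 and control siRNA in HCC15, and 34.0, 26.5 and 46.1 CPM in A427. In HCC15 siRNA 4 was lower than siRNA 2, and in A427 the order was the other way round. The levels were 59.0% and 73.8% of control with siRNA 4 in HCC15 and A427, and 90.4% and 57.5% with siRNA 2. Log2 fold changes were -0.59 ± 0.21 with siRNA 4 (adjusted p = 0.111) and -0.44 ± 0.21 with siRNA 2 (adjusted p = 0.243). Without the A427 siRNA 2 (adjusted p = 0.0305), the A427 siRNA 4 (0.0361) or the HCC15 siRNA 2 library (0.0311), CFLAR was called as lower with siRNA 4, at -0.60, -0.93 and -0.60.

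The same gene read differently per unit of length. CFLAR had 20.1, 32.2 and 22.6 TPM with siRNA 4, siRNA 2 and control siRNA in HCC15, and 33.1, 29.2 and 40.6 TPM in A427. With siRNA 2 in HCC15 the TPM was above that of the control although the reads were below it. On log2(TPM + 1) the siRNA 2 log2 difference was 0.02, where the read counts gave -0.44. RSEM divides the reads of a gene by a length averaged over the isoforms it assigns them to. That length can be read from the ratio of reads to TPM. Set to 1 in the A427 control library, it was 1.27, 1.36 and 2.00 with siRNA 4, siRNA 2 and control siRNA in HCC15, and 0.905 and 0.813 with siRNA 4 and siRNA 2 in A427. Its highest value was 2.46 times its lowest, against a median of 1 and a 95th percentile of 1.07 over 9830 genes. For the other 7 genes it varied by at most 1.10 times. The tables do not hold isoform levels, so which CFLAR transcripts were present was not analysed here.

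**Figure D3:**
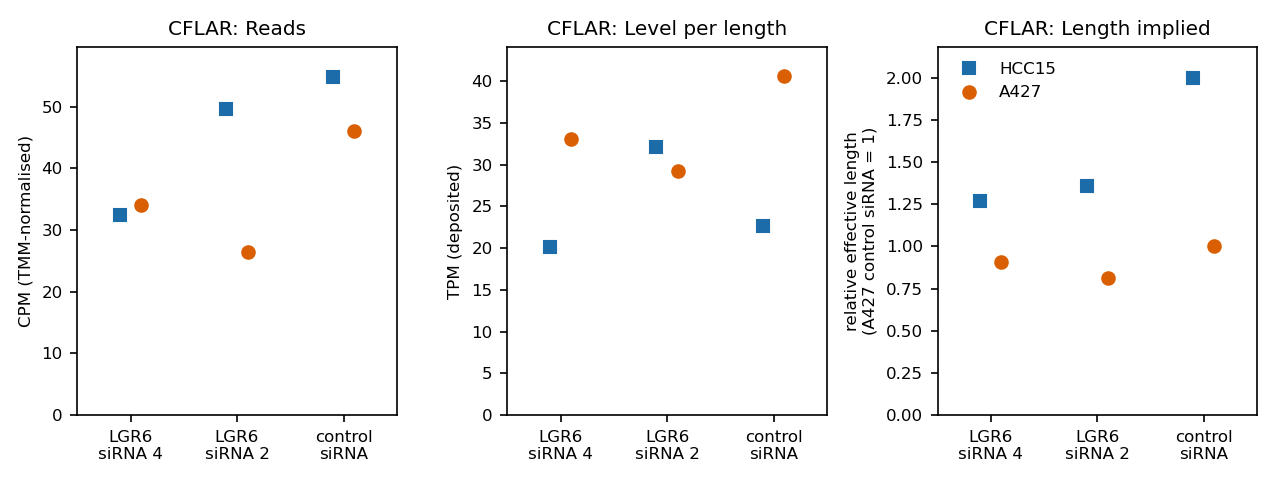
CFLAR in each library by siRNA, as CPM (left), deposited TPM (middle) and the effective length implied by their ratio, relative to the A427 control library (right), for HCC15 (squares) and A427 (circles). The HCC15 control library has the longest implied length, 2.00, and the A427 siRNA 2 library the shortest, 0.813.

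XIAP, which binds caspase 9, was lower with siRNA 4 than with siRNA 2 in both lines. It had 78.3, 146 and 120 CPM with siRNA 4, siRNA 2 and control siRNA in HCC15, and 82.9, 100 and 116 CPM in A427. The siRNA 4 libraries were the lowest in each line, whereas siRNA 2 was above control in HCC15 and below it in A427. The siRNA 4 level was 65.0% of control in HCC15 and 71.4% in A427, with counting intervals of 61.5 to 68.8% and 67.7 to 75.3%. For siRNA 2 the levels were 122% and 86.5%. Against control, siRNA 4 gave -0.55 ± 0.16 (adjusted p = 0.0610) and siRNA 2 gave 0.05 (adjusted p = 0.891).

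XIAP passed for siRNA 4 against siRNA 2, at -0.60 ± 0.16 (adjusted p = 0.0398). It was not called there without the A427 control (adjusted p = 0.0798), the HCC15 control (0.0829), the HCC15 siRNA 2 (0.267, at -0.31) or the HCC15 siRNA 4 library (0.317), nor with limma on log2(TPM + 1) (0.0589). For siRNA 4 against control it was called by DESeq2 (0.0371), and by edgeR without the A427 siRNA 2 (0.0193), the A427 siRNA 4 (0.0406) or the HCC15 siRNA 2 library (0.0193).

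DIABLO, the antagonist of XIAP, had 88.5, 48.7 and 69.7 CPM with siRNA 4, siRNA 2 and control siRNA in HCC15, and 49.1, 39.4 and 45.6 CPM in A427. In both lines siRNA 4 was highest, control intermediate and siRNA 2 lowest. Against control the log2 fold changes were 0.23 (adjusted p = 0.350) for siRNA 4 and -0.36 ± 0.15 (adjusted p = 0.193) for siRNA 2. DIABLO was higher with siRNA 4 than with siRNA 2 by 0.59 ± 0.15 (adjusted p = 0.0345). That call was lost without the A427 control (0.0855), the HCC15 control (0.0906), the HCC15 siRNA 2 (0.247, at 0.38) or the HCC15 siRNA 4 library (0.303, at 0.38), and with limma on log2(TPM + 1) (0.05, not under the threshold).

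The TPM of XIAP was 0.221, 0.754 and 0.438 times that of DIABLO with siRNA 4, siRNA 2 and control siRNA in HCC15, and 0.417, 0.633 and 0.632 times in A427. The ratio was lowest with siRNA 4 in each line. The siRNA 2 library was above control in HCC15 and level with it in A427.

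**Figure D4:**
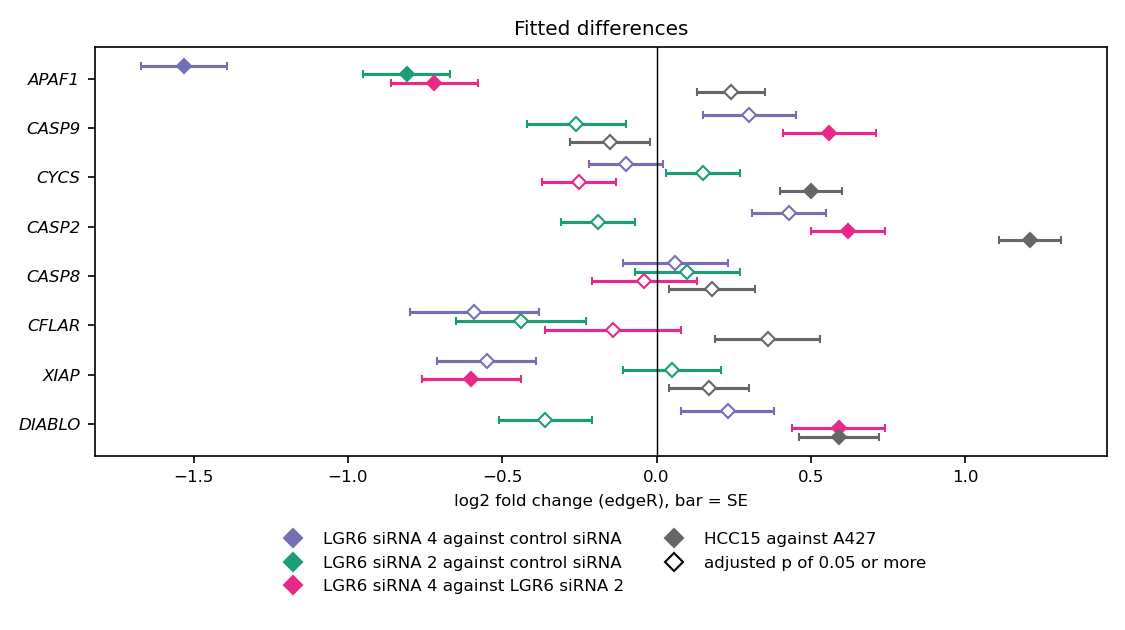
Log2 fold changes with their SE (horizontal axis) from the edgeR fit of line plus siRNA for each gene, in the 4 comparisons named in the legend. Filled symbols had an adjusted p under 0.05. APAF1 alone is filled against control, at -1.53 with siRNA 4 and -0.81 with siRNA 2, and 5 genes are filled between the siRNAs.

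Between the lines, 3 of the 8 genes were called, all higher in HCC15 than in A427, where 76.5% of all genes were called, 37.2% as higher in HCC15. A share of 3 in 8 is below that background. CASP2 was 1.21 higher on the log2 scale (adjusted p under the threshold in every alternative, highest 0.000255 with 1 library left out). DIABLO was higher in HCC15 by 0.59 ± 0.13 (adjusted p = 0.00231) and CYCS by 0.50 ± 0.10 (adjusted p = 0.00178). APAF1, at 0.24 (adjusted p = 0.0821), and CFLAR, at 0.36 (adjusted p = 0.0882), did not pass. Both were called without the A427 siRNA 4 library (adjusted p = 0.0396 for APAF1 and 0.0150 for CFLAR) and without the HCC15 siRNA 4 library (0.0307 and 0.0217). On log2(TPM + 1) the CFLAR difference was -0.46, lower in HCC15.

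Ordered by mean TPM over the 3 libraries of a line, HCC15 had CYCS at 115 ± 9.84 (SD over its 3 siRNAs), then DIABLO at 65.5 ± 15.3 and CASP2 at 62.5 ± 8.94. CASP8 followed at 32.9 ± 6.78, XIAP at 28.1 ± 9.91, CFLAR at 25 ± 6.37, CASP9 at 21.7 ± 3.63 and APAF1 at 15.2 ± 7.96 TPM. In A427 the order was CYCS at 87.5 ± 14.0, DIABLO at 45.9 ± 4.65, CFLAR at 34.3 ± 5.77, CASP8 at 30.3 ± 1.24, CASP2 at 29.3 ± 7.41, XIAP at 25.4 ± 4.27, CASP9 at 25.4 ± 4.57 and APAF1 at 13.3 ± 6.60 TPM. The ranges of neighbours overlapped in both lines, except between CYCS and DIABLO in each line, between CASP2 and CASP8 in HCC15 and between DIABLO and CFLAR in A427. CASP2 ranked higher in HCC15 than in A427. APAF1 was last in both by these means, which include the siRNA libraries. In the HCC15 control library APAF1, at 23.2 TPM, was above CFLAR, at 22.6 TPM, and CASP9, at 19.7 TPM.

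The genes around these 8 in the pathway were read from lists by role. Of the other inhibitors of apoptosis and their antagonists, 7 of 8 were tested. With siRNA 4, 2 of these 7 were lower, where 7.95% of all genes were, and with siRNA 2, 1 was lower, where 4.66% of all genes were. The list medians were -0.48 and -0.07, against -0.01 over all genes in each. BIRC6, a large ubiquitin ligase that restrains caspases, had 145, 282 and 279 CPM with siRNA 4, siRNA 2 and control siRNA in HCC15 and 231, 378 and 314 CPM in A427, and fell by 0.69 ± 0.14 with siRNA 4 (adjusted p = 0.0168). BIRC2 (cIAP1) fell by 0.48 ± 0.13 with siRNA 4 (adjusted p = 0.0437) and had -0.44 with siRNA 2 (adjusted p = 0.0753, and 0.0456 by DESeq2). BIRC5 (survivin), which also acts in chromosome segregation, fell by 0.70 ± 0.17 with siRNA 2 (adjusted p = 0.0474) and had -0.56 with siRNA 4 (adjusted p = 0.0683, and 0.0452 by DESeq2). All 3 calls were lost without the A427 control, without the HCC15 control and without the HCC15 library of the same siRNA (highest adjusted p = 0.285, 0.358 and 0.479 for BIRC6, BIRC2 and BIRC5). BIRC2 was also lost without the A427 siRNA 4 library, without a filter on low counts (0.0594) and on log2(TPM + 1) (0.0734). BIRC5 was also lost without the HCC15 siRNA 4 library, with RLE scaling (0.0516), without a filter on low counts (0.0607) and on log2(TPM + 1) (0.0675), and stood at -0.41 without the HCC15 siRNA 2 library. BIRC5 was called with siRNA 4 without the A427 siRNA 2 (0.0273) or the HCC15 siRNA 2 library (0.0260).

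Of the death receptors, ligands and adaptors, 9 of 10 were in the table and 8 were tested. TNFRSF10B, the TRAIL receptor DR5, was the only 1 to pass against control, with siRNA 2, where 7.62% of all genes passed, 4.66% as lower. A share of 1 in 8 is near that background. It had 96.4, 65.5 and 100 CPM with siRNA 4, siRNA 2 and control siRNA in HCC15, and 209, 136 and 226 CPM in A427. It fell by 0.67 ± 0.11 with siRNA 2 (adjusted p = 0.0131) and had -0.08 with siRNA 4 (adjusted p = 0.665). The siRNA 2 call was lost without either control library or either siRNA 2 library (highest adjusted p = 0.201), at -0.71 to -0.60. None of the 6 released mitochondrial proteins and nuclease effectors passed with either siRNA by edgeR, and PARP1 and ENDOG had unadjusted p of 0.0205 and 0.0211 with siRNA 2. The 2 most abundant of these were PARP1, at 0.17 (adjusted p = 0.339) with siRNA 4 and 0.31 (adjusted p = 0.124, and 0.0539 by DESeq2) with siRNA 2, and AIFM1, at 0.11 with each.

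**Figure D5:**
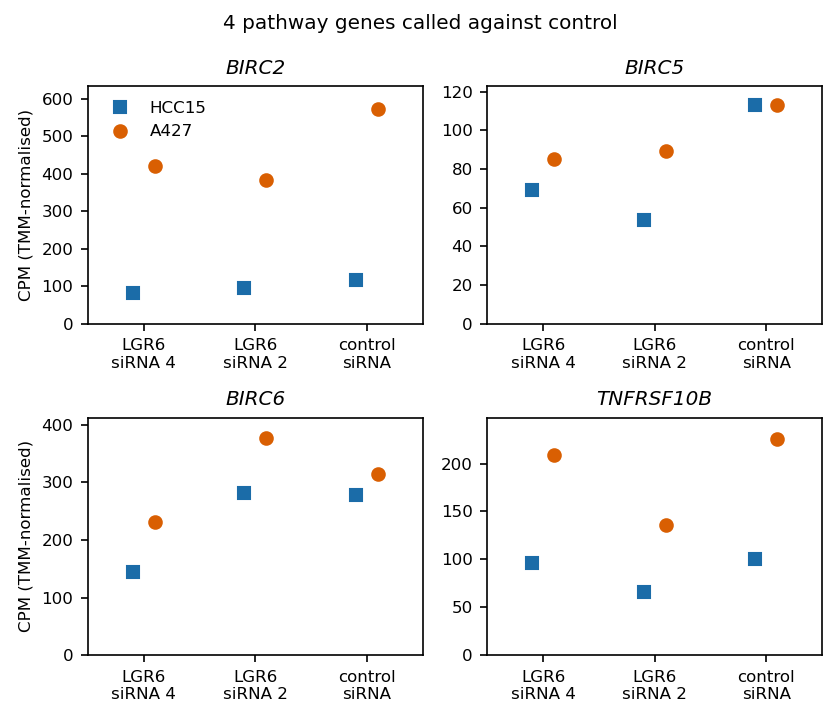
CPM (vertical axis, TMM scale) of BIRC2, BIRC5, BIRC6 and TNFRSF10B in HCC15 (squares) and A427 (circles) by siRNA. BIRC6 is lowest with siRNA 4 in both lines, at 145 and 231 CPM, and TNFRSF10B is lowest with siRNA 2 in both, at 65.5 and 136 CPM.

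Of the 7 tested other inhibitors and antagonists, 1 was higher and 5 were lower in HCC15 than in A427, where 76.5% of all genes were called, 37.2% as higher and 39.3% as lower. In either direction together that share is near the background. By direction, 5 in 7 lower is above its background and 1 in 7 higher is below. The list mixes inhibitors with their antagonists, so the direction is not that of 1 role. HTRA2, 1 of the 5 lower, was at -0.30 ± 0.12 (adjusted p = 0.0499 by edgeR). The 1 higher was XAF1, with 0 reads in A427 and 16 to 61 in HCC15. BIRC3 and CASP10 were picked out after their values were seen. BIRC3 (cIAP2) had 15.9, 16.1 and 18.7 CPM with siRNA 4, siRNA 2 and control siRNA in HCC15, against 2717, 2274 and 3134 CPM in A427. CASP10, which lies with CASP8 and CFLAR on chromosome 2, had 13.8 to 14.8 CPM in HCC15, against 0.191 to 0.616 CPM in A427.

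The likeness of other genes to APAF1 was measured by Pearson's r of log2 CPM over the 6 libraries after centring each line. The most alike were RETSAT (r = 1 after rounding), HOXA13 (0.998) and NR1D2 (0.998), out of 13090 genes, of which 262 had an r of at least 0.95. NR1D2, a nuclear receptor of the circadian clock, had 15.6, 28.4 and 46.4 CPM with siRNA 4, siRNA 2 and control siRNA in HCC15, and 35.7, 48.3 and 80.6 CPM in A427. RETSAT, a retinol saturase, had 46.7, 60.8 and 76.2 CPM in HCC15 and 56.8, 67.7 and 86.8 CPM in A427. HOXA13 had 0.0779 to 0.228 CPM in HCC15, near the floor, and 1.45 to 2.98 CPM in A427. Genes needed a mean of at least 1 CPM over the 6 libraries, which HOXA13 reached only through A427. Among the 8 genes, r with APAF1 was 0.820 for CFLAR, 0.776 for XIAP and 0.252 for CYCS. It was -0.621 for CASP2, -0.493 for CASP9, -0.365 for DIABLO and -0.0920 for CASP8. The points share libraries and siRNAs, so these values are descriptions.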

How the data were processed

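Libraries were prepared with KAPA mRNA HyperPrep reagents, per the labels' protocols. FastQC 0.11.1, STAR 2.5.3a, RSEM 1.3.3 and hg19 are named in the submitters' processing notes. No source names the annotation. The authors deposited expected counts per gene symbol, which RSEM estimates and which were rounded here, and TPM, scaled by length and to a fixed total per library. The 14481 of 23686 genes that reached 10 reads in 2 or more libraries were tested with edgeR 4.0.16 (TMM, quasi-likelihood; R 4.3.3), adjusted by Benjamini-Hochberg over all of them, after a test on simulated counts. Single siRNAs and the lines used line plus siRNA (2 residual degrees of freedom), both siRNAs together line plus arm (3), and responses within a line line by arm (2, or 1 with the siRNA number as a block). Alternatives were DESeq2 1.42.0, RLE scaling, no filter, limma 3.58.1 on log2(TPM + 1) or log2(TPM + 0.1), and leaving out each library. Per the labels, an siRNA number names 1 reagent used in both lines, which pairs libraries, and the difference of siRNA 4 and siRNA 2 correlated at 0.594 between the lines across genes. Every pair of libraries had a chi-square of at least 56.9 per degree of freedom, so none was a duplicate. Intervals are exact binomial (95%), conditional for ratios. In each pathway list reported, genes past the threshold against control were named, up to 4, or else the 2 most abundant. The list of other caspases is not reported here. The members and lists were chosen with earlier results of these data known, and CFLAR length and the ratios between genes were examined after their values were seen.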

Additional observations from a re-analysis of the deposited data

How the results depend on the processing

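Each of the 8 genes had at least 484 reads in every library, with 1 library per line and siRNA. Whether depth limited the calls was not tested. Called genes with siRNA 4 against control (1814) numbered 97 to 2098 with 1 library left out, and fell by more than 1.5 times without either control or the HCC15 siRNA 4 library. With siRNA 2 against control (1104) they numbered 4 to 1438, lower by that much without either control or either siRNA 2 library. For siRNA 4 against siRNA 2 (2395) they numbered 439 to 2220, lower by that much without either control or either HCC15 LGR6 siRNA library. limma on log2(TPM + 0.1) called 1145 and 678 genes with siRNA 4 and siRNA 2, and on unfiltered log2(TPM + 1) 2 and 3, and 371 between the siRNAs. Of the calls, 38.9% were higher with siRNA 2 against control, and 51.2% on log2(TPM + 1). Between the siRNAs these shares were 46.6% and 35.8%. The TPM scale put the median of all genes at -0.11 between the lines, against -0.03.

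Across both lines edgeR called 0 genes, 1298 with the siRNA number as a block, DESeq2 387 and limma 1 in each of its 3 settings. Within HCC15 edgeR called 0 (535 at an unadjusted p under 0.05), 114 with the block, DESeq2 31 and unfiltered limma 4. Within A427 edgeR called 0 (389 unadjusted), DESeq2 4 and unfiltered limma 6. For the difference between the lines edgeR called 0 (78 unadjusted) and unfiltered limma 10. Among the 8 genes the block brought the calls of APAF1 named in the text and no other.

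APAF1 kept its direction against control and between the siRNAs in every alternative. Its response in HCC15 minus that in A427 (-0.02) was 0.00 with DESeq2 and with RLE scaling and -0.54 to 0.39 with 1 library left out. CFLAR changed sign on TPM with siRNA 2 (0.02 in all 3 settings) and between the lines (-0.46, -0.47 and -0.46). The other sign changes were in uncalled values with 1 library left out. With siRNA 4 the ranges were -0.21 to 0.01 for CYCS and -0.08 to 0.23 for CASP8. With siRNA 2 they were -0.19 to 0.36 for CASP8, -0.24 to 0.31 for XIAP and -0.01 to 0.35 for BIRC6. Between the siRNAs they were -0.30 to 0.24 for CASP8 and -0.53 to 0.28 for CFLAR, and between the lines 0.00 to 0.32 for CASP8 and -0.02 to 0.33 for XIAP. Across both lines they were -0.09 to 0.22 for CASP9, -0.08 to 0.10 for CYCS, -0.02 to 0.28 for CASP2, -0.06 to 0.25 for CASP8 and -0.23 to 0.12 for DIABLO. The cause of these changes was not tested.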
